A study of Homo sapiens with 18 samples.

Results

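The genes described here are 10 feedback regulators and transcriptional outputs of the ERK pathway: the phosphatases DUSP1, DUSP4, DUSP5, DUSP6 and DUSP10, the Sprouty proteins SPRY2 and SPRY4, the Spred proteins SPRED1 and SPRED2, and the ETS factor ETV5. They were taken by symbol, and all 10 were measured both among the 44682 genes of the whole-cell table and among the 15747 genes of the table of cytoplasm and polysomes. The cells were DU145, a human line from a metastatic prostate carcinoma, and the vehicle control (Ctl) and GC7 groups were each sampled as whole cells, as cytoplasmic lysate (Cyto) and as heavy polysomes (Poly), with 3 libraries in each of the 6 groups. GC7 was given at 40 µM for 24 h. It inhibits deoxyhypusine synthase, the enzyme that starts the hypusine modification of the translation factor eIF5A. Per the labels' protocol, which is the same text for every library, vehicle and GC7 cells alike received emetine, a blocker of translation elongation, at 25 µg/ml for 10 min before harvest. All groups are 1 cell line, and the labels do not say whether the 3 libraries came from separate cultures, so each p-value reflects variation among these libraries only, which could be technical. The values used here are the authors' comparison tables, which hold no value for single libraries, so no SD can be given and the depth of each library is unknown.

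ERK is switched on by growth factor receptors through RAS, RAF and MEK, and it induces its own inhibitors. Dual-specificity phosphatases (DUSPs) remove the activating phosphates from ERK or from its relatives JNK and p38, Sprouty proteins act between the receptor and RAS, and Spred proteins bring the RAS inactivator neurofibromin to the membrane. Several of these mRNAs are short-lived and are widely read as a gauge of ERK signalling, as is ETV5, a transcription factor of the PEA3 group.

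The numerator is named in neither table. The category "UP" of the authors' deposited table was read as higher with GC7, and the sign of the whole-cell table was reversed, because its values as deposited correlate negatively across the 14099 genes present in both tables with those of cytoplasm (Spearman's rho -0.28) and polysomes (-0.37). On the opposite reading every direction below turns round. Fold changes of the fractions are shrunken towards 0 in the authors' deposited table, and an unshrunken value with a 95% interval was computed from each. Of the 5 epithelial markers checked, all 5 were measured in the fractions, with KRT18 at a cytoplasmic mean normalized count of 41006 and CDH1 at 337 in the authors' deposited table. Of 5 markers of fibroblasts, leukocytes and endothelium, 0 were measured there. EPCAM, one of the epithelial markers, was called higher with GC7 in polysomes of the authors' deposited table, where its log2 fold change was 0.59 (SE 0.19, adjusted p = 0.00408).

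The RefSeq promoter table (GRCh38.p14) held 7 of the 10 genes (not DUSP4, DUSP5 or ETV5). Both promoters below, the 250 bases before the transcription start on the gene's strand, are shown because DUSP1 had the highest polysomal level relative to cytoplasm of the 10 genes and SPRY4 the smallest whole-cell p-value. Capitals mark the cyclic AMP response element TGACGTCA (CRE), its core TGACG and the ETS core GGAAG, on either strand. The DUSP1 stretch is chr5:172771196-172771445 and the SPRY4 stretch chr5:142324248-142324497, both on the minus strand. The SPRY4 stretch lies inside the gene as GENCODE annotates it (142310427 to 142326455), so the RefSeq start used for SPRY4 is not its outermost start.
DUSP1: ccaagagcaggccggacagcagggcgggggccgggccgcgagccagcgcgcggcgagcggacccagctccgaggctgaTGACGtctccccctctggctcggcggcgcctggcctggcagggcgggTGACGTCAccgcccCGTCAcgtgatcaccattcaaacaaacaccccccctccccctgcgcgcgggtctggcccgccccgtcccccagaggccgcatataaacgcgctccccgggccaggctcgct
SPRY4: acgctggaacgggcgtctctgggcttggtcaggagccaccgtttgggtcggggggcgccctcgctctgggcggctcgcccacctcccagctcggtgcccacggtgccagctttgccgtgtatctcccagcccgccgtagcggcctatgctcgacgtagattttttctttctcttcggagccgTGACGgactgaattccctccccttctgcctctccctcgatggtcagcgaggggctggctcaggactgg

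DUSP1 carried the full CRE at 125 to 118 bases before the start, and 4 matches to the core, of which 2 lie inside that CRE. No other of the 7 promoters held the full CRE, and 317 of 11138 promoters of genes measured in the fractions did (2.85%). The core was present in 3 of the 7 (DUSP1, SPRY2 and SPRY4) and in 29.9% of the 11138. The ETS core was present in 4 of the 7 (DUSP6, SPRY2, SPRED1 and SPRED2) and in 69.6%. The AP-1 site TGANTCA, the CArG box of serum response factor and the ATF4 composite site TGATGNAA were in 0 of the 7 windows and in 3.91%, 0.952% and 1.42% of the 11138. A match describes letters only, and the data hold no measure of binding.

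The 10 mRNAs were first placed by their level in each fraction. Mean normalized counts, taken as averages over vehicle and GC7 libraries together, ran from 118 for DUSP10 to 3557 for DUSP5 in cytoplasm, and from 227 to 5265 for the same genes in polysomes, in the authors' deposited table. Divided by the length of the canonical GENCODE transcript, the highest cytoplasmic level was again that of DUSP5 at 1436 per kilobase, followed by DUSP1 at 380, ETV5 at 365, DUSP6 at 331 and SPRED2 at 299.6, while DUSP4 (46.2) and DUSP10 (45.6) were lowest. The median over 12901 coding genes was 152. In polysomes DUSP5 and DUSP1 stood side by side, at 2126 and 2028 per kilobase, above 88.7% and 88.3% of coding genes. The spread of these levels between libraries is not known, so neighbours in these orders cannot be told apart.

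DUSP1, a nuclear phosphatase of p38, JNK and ERK that growth factors and stress induce within minutes, stood apart in how its level compared between fractions. By the authors' deposited table its mean normalized count was 765 in cytoplasm and 4083 in polysomes, a ratio of 5.34 where the median gene had 1.42, and higher than that of 99.9% of genes. SPRY2, which restrains signalling from receptor tyrosine kinases to RAS, came second of the 10, with 317 and 998 and a ratio of 3.15 in the authors' deposited table, above 98.5% of genes. Some lists of related genes described below also reached past 3.15. Their highest ratios were 3.98 (other Sprouty-type and RAS-pathway inhibitors), 3.56 (the chain from adaptors to kinases) and 3.25 (other ERK-induced genes). The highest among the other DUSPs was 2.35. At the other end DUSP6, the cytoplasmic phosphatase selective for ERK, had, by the authors' deposited table, a mean of 1199 in cytoplasm and 1096 in polysomes, a ratio of 0.914 that was above only 12.8% of genes. The other 7 ratios lay between 1.48 (DUSP5) and 1.92 (DUSP10). The fractions were normalized separately, so a ratio is read against those of other genes and is not itself a share of mRNA on polysomes, and it has no test because no single libraries are given. Whole-cell levels were not analysed here, since that table gives fold changes alone.

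**Figure D1:**
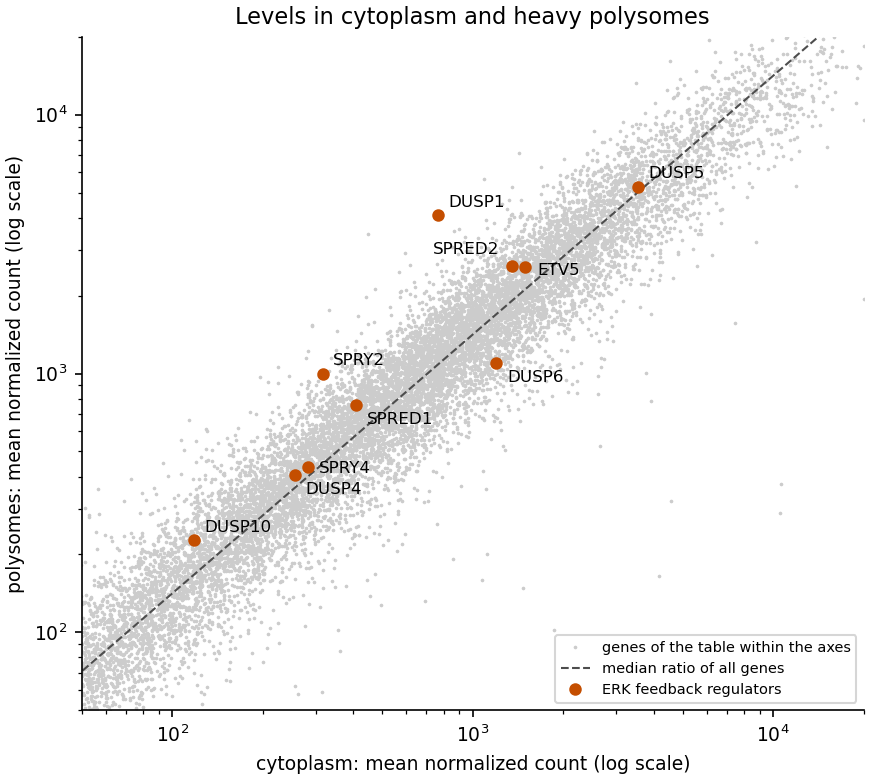
Mean normalized count in polysomes (vertical axis, log scale) against cytoplasm (horizontal axis, log scale), 1 point per gene, with the 10 ERK feedback regulators in orange, other genes in grey and the median ratio of 1.42 as a dashed line. DUSP1 (5.34) and SPRY2 (3.15) lie above the line and DUSP6 (0.914) below it.

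The comparison of GC7 with vehicle in each fraction asked whether these mRNAs changed in abundance in the cytoplasm or on heavy polysomes. DUSP5, a nuclear phosphatase that inactivates and anchors ERK, rose in both, and no other of the 10 passed the test in either. DUSP5 (ENSG00000138166.6, chromosome 10, 110497907 to 110511533, GRCh38, plus strand) had, by the authors' deposited table, a cytoplasmic log2 fold change of 0.95 (SE 0.18, adjusted p = 2.41e-06) and a polysomal one of 0.84 (SE 0.12, adjusted p = 1.52e-10). Unshrunken, these were 1.01 (95% interval 0.66 to 1.35) and 0.88 (0.64 to 1.11), or 2.01-fold and 1.83-fold. By p-value DUSP5 was number 58 of 15747 genes in cytoplasm and number 59 in polysomes. Its whole-cell value, with the sign of the authors' deposited table reversed, was 0.71, at an unadjusted p of 0.166. The authors' deposited table of the fractions puts DUSP5 in the category "Non significative", because that category also asks for a log2 fold change over 1 in size.

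One gene of 10 called higher compares with 2.29% of all genes called higher in cytoplasm and 5.61% in polysomes, and 0 of 10 called lower with 1.95% and 5.48%. Against background shares of that size, a count of 1 is no result about the genes as a group. The median deposited log2 fold change of the 10 was 0.15 in cytoplasm and 0.06 in polysomes, against -0.0036 and -0.0049 for the median gene. Unshrunken, the medians of the 10 were 0.45 and 0.10, against -0.01 for the median gene in each fraction. At an unadjusted p under 0.05, 4 of the 10 were higher in cytoplasm (DUSP5, SPRED2, ETV5 and DUSP10; 7.31% of all genes), 2 were higher in polysomes (DUSP5 and DUSP4; 11.2%) and 1 was lower there (SPRED1; 12.1%). Only DUSP5 was on both lists of higher genes.

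The other phosphatases did not pass the test. DUSP4, a nuclear phosphatase related to DUSP1 (chromosome 8), had unshrunken log2 fold changes of 0.34 in cytoplasm (95% interval -0.11 to 0.78) and 0.43 in polysomes (0.08 to 0.77), with deposited adjusted p-values of 0.494 and 0.103. DUSP10, whose substrates are p38 and JNK (chromosome 1), had 0.57 (0.11 to 1.03) and 0.35 (-0.04 to 0.75), with adjusted p-values of 0.174 and 0.283 in the authors' deposited table. For both genes the intervals overlap those of DUSP5 in each fraction. DUSP6 (chromosome 12) lay on the other side of 0, at -0.22 (-0.56 to 0.11) in cytoplasm and -0.17 (-0.62 to 0.29) in polysomes. Its polysomal and cytoplasmic intervals do not overlap those of DUSP5, although the difference between the 2 genes was not tested.

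DUSP1 was measured with unequal precision. In polysomes its unshrunken log2 fold change was -0.06 with a 95% interval from -0.38 to 0.25, which leaves out a change of the size seen for DUSP5. In cytoplasm it was 0.84 with an interval from -0.18 to 1.87, and the deposited value of 0.13 in the authors' deposited table is the same estimate after strong shrinkage. SPRY2 had the same pattern, at -0.04 (-0.32 to 0.24) in polysomes and 0.49 (-0.49 to 1.47) in cytoplasm. Their cytoplasmic SEs of 0.52 and 0.50 were the widest of the 10 genes, and these are also the genes with the highest ratios of polysomal to cytoplasmic level. A cytoplasmic change of the size seen for DUSP5 can therefore be neither shown nor set aside for these 2 genes.

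SPRY4, the other Sprouty inhibitor of receptor signalling among the 10, had 0.15 (-0.21 to 0.50) in cytoplasm and 0.08 (-0.24 to 0.40) in polysomes, unshrunken. The Spred genes differed in direction: SPRED2 (chromosome 2) stood at 0.47 (0.11 to 0.83) in cytoplasm and 0.12 (-0.28 to 0.53) in polysomes, and SPRED1 (chromosome 15) at -0.13 (-0.79 to 0.54) and -0.38 (-0.76 to -0.01). Their smallest deposited adjusted p-values were 0.134 for SPRED2, in cytoplasm, and 0.213 for SPRED1, in polysomes. ETV5 (chromosome 3) had 0.43 (0.09 to 0.77) in cytoplasm and 0.23 (-0.02 to 0.49) in polysomes, with adjusted p-values of 0.154 and 0.282 in the authors' deposited table. None of these genes passed, and the intervals of SPRED2 and ETV5 in cytoplasm leave room for increases of up to 0.83 and 0.77.

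**Figure D2:**
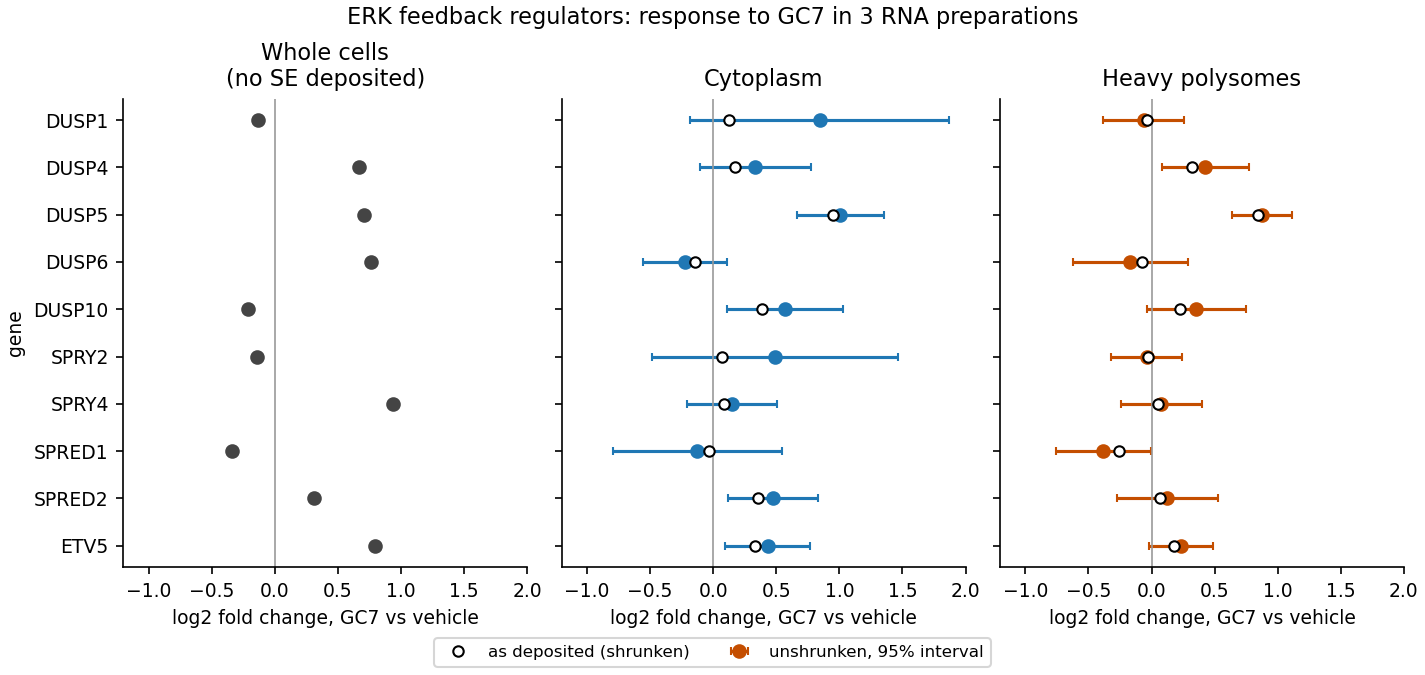
Log2 fold change of GC7 against vehicle (horizontal axis) for the 10 genes (vertical axis) in whole cells, cytoplasm and heavy polysomes; filled points in the fractions are unshrunken values with 95% intervals, open points the deposited values, and whole-cell points carry no error because that table gives no SE. DUSP5 lies at 1.01 and 0.88 with narrow intervals, while DUSP1 and SPRY2 have wide intervals in cytoplasm and narrow ones in polysomes.

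In whole cells 6 of the 10 values were positive and none passed adjustment, with an adjusted p of 0.953 for each of the 10 genes by Benjamini-Hochberg over 44682 genes. Of all 44682 genes, 0% passed. The 44682 include 18039 genes that were taken to have no reads, since they share 1 fold change. Adjusting over the 26643 genes with reads also called 0 genes. SPRY4 had the largest value, 0.94, and the smallest unadjusted p, 0.0233, once the sign of the authors' deposited table was reversed. It was the 1 gene of 10 higher at an unadjusted p under 0.05, where 2.08% of the 14099 genes in both tables were higher, and 0 of 10 were lower, where 1.04% were. ETV5 stood at 0.79 (unadjusted p = 0.119), DUSP6 at 0.77 (0.328), DUSP4 at 0.67 (0.0892) and SPRED2 at 0.31 (0.438), with the sign of the authors' deposited table reversed. On the negative side were SPRED1 at -0.34 (0.608), DUSP10 at -0.21 (0.784), SPRY2 at -0.14 (0.794) and DUSP1 at -0.13 (0.796), likewise after reversing the authors' deposited table. The median was 0.49, against -0.04 over the 14099 genes. DUSP6 and DUSP10 thus had opposite signs in whole cells and in both fractions, neither with a p-value that passes in either table, and sizes are not compared between tables because one of them is shrunken.

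Reads of some of these genes may be shared with copies or overlapping transcripts, and strand-aware counting is not given in the sources used here. DUSP5 has the processed pseudogenes DUSP5P1 and DUSP5P2 in the annotation, and the authors' deposited table, sign reversed, gives DUSP5P1 a whole-cell value of 0.13 (unadjusted p = 0.803). The divergent transcript DUSP5-DT had a mean normalized count of 24.7 in cytoplasm and 24.4 in polysomes, with adjusted p-values of 0.831 and 0.401, in the authors' deposited table. SPRY4-AS1, which overlaps SPRY4 in the annotation, had 23.3 and 37.8 in the authors' deposited table, against 284 and 437 for SPRY4. No call was made for either.

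The design also asks whether GC7 moved an mRNA on polysomes by more or less than in cytoplasm. This was tested as the polysomal minus the cytoplasmic unshrunken log2 fold change. None of the 10 genes passed, each with an adjusted p of 0.9997, and neither did any of the 15742 genes tested (0%). At an unadjusted p under 0.05 there were 0 of the 10 genes and 2.14% of all genes. That share is below the one expected at a threshold of 0.05 if no gene differed, so the errors used here may be too wide. For DUSP5 the difference was -0.13 (95% interval -0.55 to 0.29), so that this test did not distinguish the rise in the cytoplasm from that on polysomes in size. The difference was negative for 8 of the 10, with a median of -0.21 against 0.01 for the median gene, and furthest from 0 for DUSP1 at -0.91 (-1.98 to 0.16) and SPRY2 at -0.53 (-1.55 to 0.49). The smallest unadjusted p of the 10, that of DUSP1, was 0.0973. The test takes the errors of both fractions as independent. Their correlation was not tested, since it needs single libraries.

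**Figure D3:**
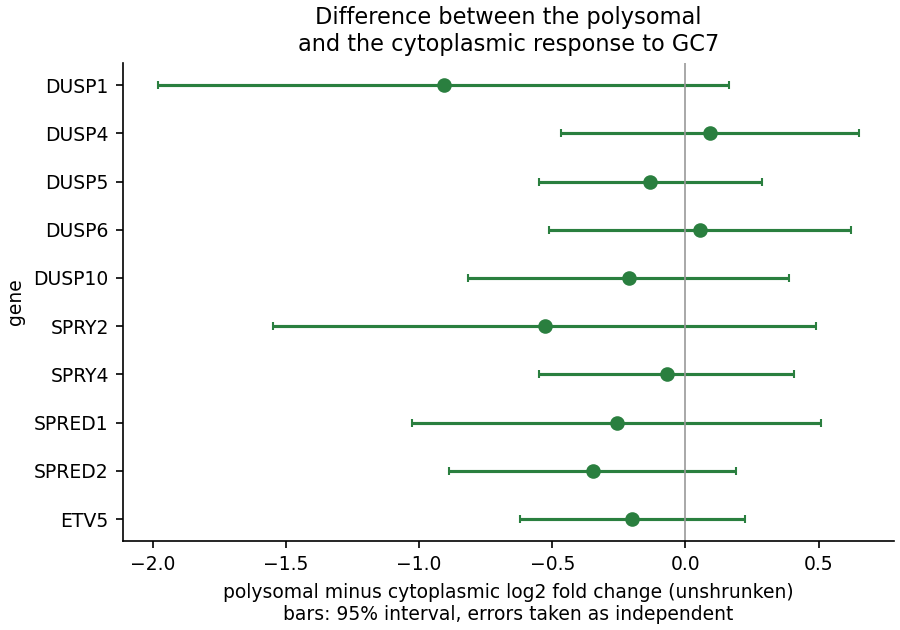
Polysomal minus cytoplasmic unshrunken log2 fold change (horizontal axis) for the 10 genes (vertical axis), with 95% intervals. Every interval includes 0, and those of DUSP1 (-1.98 to 0.16) and SPRY2 (-1.55 to 0.49) are the widest.

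The remaining pathway was described from lists of genes by role, whose counts are read against the shares of all genes called higher (2.29% in cytoplasm and 5.61% in polysomes) and lower (1.95% and 5.48%). With lists this short, counts of 1 or 2 called genes are no result about a list. Of 8 other DUSPs, 0 were called in cytoplasm, and in polysomes 2 fell and 0 rose. By the authors' deposited table these were DUSP3, a small phosphatase of ERK and JNK, at -0.40 (SE 0.15, adjusted p = 0.0184), and DUSP14 at -0.33 (SE 0.13, adjusted p = 0.0327). The median of the 8 in polysomes was -0.16. Of 9 measured genes among other Sprouty-type and RAS-pathway inhibitors, 0 were called in cytoplasm and 1 fell in polysomes. This was PEBP1, a protein that binds RAF and keeps it from MEK, for which the authors' deposited table gives -0.38 (SE 0.13, adjusted p = 0.0142). SPRY1, another Sprouty gene on that list, had 0.68 in cytoplasm with an adjusted p of 0.105 and 0.34 in polysomes with 0.147 in the authors' deposited table. ETV4, which belongs with ETV5 to the PEA3 group, was not called, and the authors' deposited table gives it -0.04 in cytoplasm (adjusted p = 0.864) and -0.20 in polysomes (adjusted p = 0.193). ETV1, also of that group, had no value in the fractions. In whole cells ETV1 stood at -1.62 (unadjusted p = 0.0257) and ETV4 at 0.56 (0.175), with the sign of the authors' deposited table reversed. Neither passed adjustment there.

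Along the signalling chain from adaptors to kinases, 0 of 18 genes were called in cytoplasm, and in polysomes 1 rose and 2 fell, where 5.61% of all genes rose and 5.48% fell. By the authors' deposited table BRAF, a RAF kinase, rose by 0.53 (SE 0.16, adjusted p = 0.0026). HRAS and MAP2K2, one of the MEK kinases, fell to log2 fold changes of -0.39 (SE 0.18, adjusted p = 0.044) and -0.40 (SE 0.14, adjusted p = 0.0138) by the authors' deposited table. MAPK3, an ERK kinase gene, was not called, with a polysomal adjusted p of 0.132 in the authors' deposited table. Of 12 kinases of the JNK, p38 and ERK5 branches, the gene for ERK5, MAPK7, fell in both fractions. The authors' deposited table gives MAPK7 a cytoplasmic value of -0.54 (SE 0.16, adjusted p = 0.00515) and a polysomal value of -0.63 (SE 0.16, adjusted p = 0.000367). MAP2K3, an activator of p38, fell in polysomes, to -0.42 by the authors' deposited table (SE 0.12, adjusted p = 0.00304). No other of the 12 was called in either fraction.

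Of 13 measured genes that ERK is known to induce, outside the 10, 1 rose in cytoplasm and 2 rose in polysomes, with 0 called lower, beside 2.29% and 5.61% of all genes called higher. By the authors' deposited table HBEGF, a ligand of the EGF receptor, rose by 0.77 in cytoplasm (SE 0.14, adjusted p = 1.29e-06) and by 0.53 in polysomes (SE 0.16, adjusted p = 0.00341). FOSL1, an AP-1 subunit, rose by 0.33 in polysomes according to the authors' deposited table (SE 0.14, adjusted p = 0.0428). EGR1, PHLDA1 and CCND1, common readouts of ERK activity, were not called, with cytoplasmic values of 0.23, 0.37 and -0.20 and polysomal values of 0.03, 0.19 and 0.02 in the authors' deposited table. Unshrunken, these values were 0.63 (SE 0.34), 0.59 (SE 0.25) and -0.26 (SE 0.13) in cytoplasm and 0.04, 0.25 and 0.03 in polysomes. Their whole-cell values were 1.26, 0.89 and -0.10 (unadjusted p = 0.0567, 0.073 and 0.773), with the sign of the authors' deposited table reversed. The median of the 13 was 0.12 in cytoplasm, where 11 were positive, and 0.03 in polysomes, or 0.40 and 0.04 unshrunken. EGR3, on the same list, had no value in the fractions. Its whole-cell value was -1.90 (unadjusted p = 0.00431), with the sign of the authors' deposited table reversed. It was the 1 gene of the 14 listed that was lower there at an unadjusted p under 0.05, and 0 were higher. Of all 44682 genes, 1336 reached that threshold in either direction and 0 passed adjustment. Of 6 proteins that bind AU-rich elements in short-lived mRNAs, 1 was called lower in cytoplasm, where 1.95% of all genes were, and 0 were called in polysomes. KHSRP, which promotes decay, fell in cytoplasm, where the authors' deposited table gives -0.70 (SE 0.14, adjusted p = 2.04e-05), and stood at -0.25 in polysomes (adjusted p = 0.17).

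**Figure D4:**
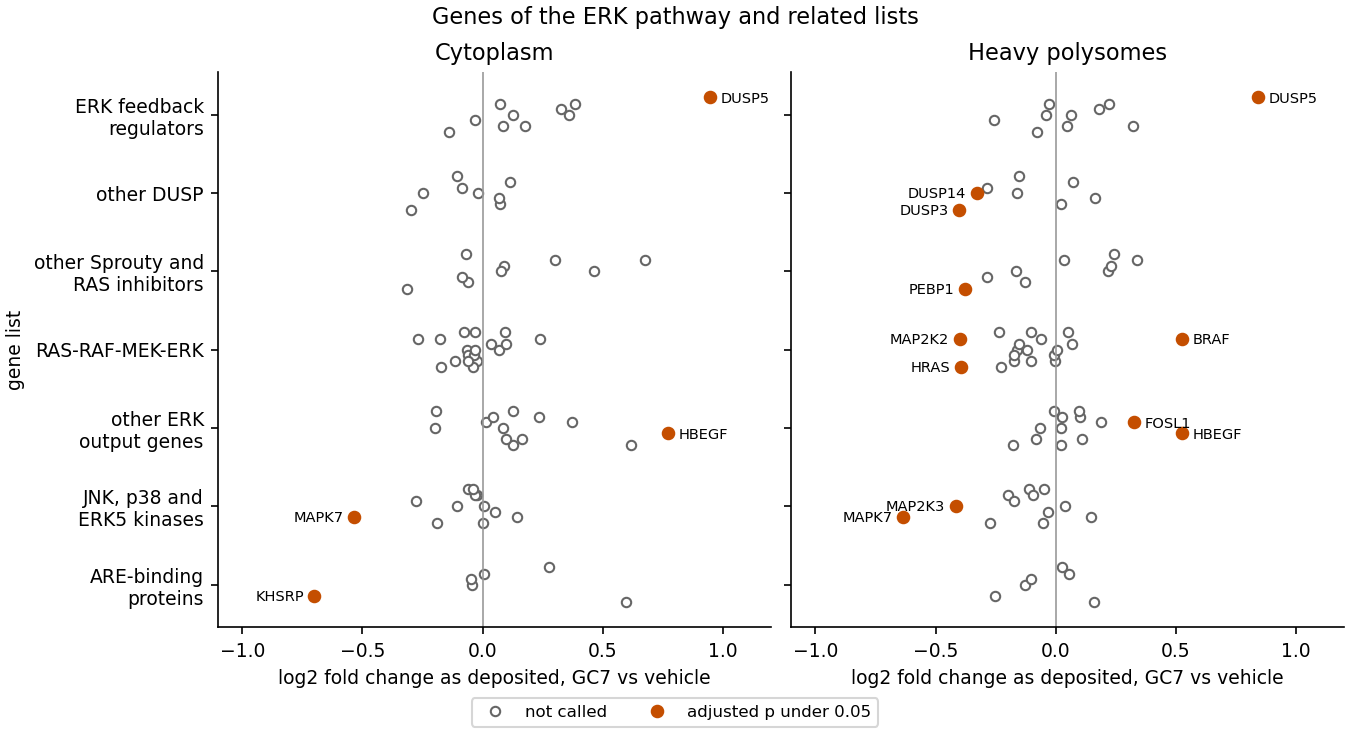
Deposited log2 fold change of GC7 against vehicle (horizontal axis) for the 10 ERK feedback regulators and 6 lists of related genes (vertical axis) in cytoplasm and heavy polysomes, 1 point per gene, filled and named where the deposited adjusted p is under 0.05. DUSP5 and HBEGF rose in both fractions, and MAPK7 fell in both. Most points of every list lie close to 0, where the shrinkage of the deposited values also draws them. The cytoplasmic median of the 10 genes was 0.15 as deposited and 0.45 unshrunken, and the cytoplasmic value of DUSP1 was 0.13 and 0.84.

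The transcripts of the 10 genes were also described by features that did not enter their choice. Coding sequences ran from 900 bases (SPRY4) to 1533 (ETV5), and 8 of the 10 were shorter than the median of 1401 for coding genes. The AU-rich pentamer ATTTA, which marks many labile mRNAs, occurred at 6.01 per kilobase of 3′ UTR in DUSP1 and 4.30 in SPRED1, was above the median of 1.64 in 7 of the 10, and had 0 matches in DUSP5. Runs of 3 or more proline codons, a sequence at which ribosomes depend on eIF5A, were present in DUSP4, SPRY4 and ETV5 (longest run 3, 3 and 4 codons), 3 of the 10, against 26.2% of coding genes. DUSP5 had none. Over all coding genes the polysomal median was -0.02 with such a run and -0.02 without, unshrunken. By distance over the whole-cell value and the unshrunken cytoplasmic and polysomal values, the genes most like DUSP5 among 11152 were NPAS1 (0.168), MR1 (0.171) and TCEA1 (0.176). TCEA1, a transcription elongation factor, was called higher in cytoplasm and polysomes (adjusted p = 9.61e-05 and 1.34e-05), as was MR1 (0.0218 and 1.54e-06), while NPAS1 was called in polysomes (2.82e-05) and not in cytoplasm (0.0576) in the authors' deposited table. These 3 genes were picked for values near those of DUSP5, so their calls largely follow from that choice and are no separate result.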

How the data were processed

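RNA of DU145 cells given vehicle or GC7 was sequenced from whole cells, cytoplasm and heavy polysomes, 3 libraries per group, grouped by the labels' titles. The submitters' processing notes name the tools STAR 2.7.8a and Salmon 1.4.0 and the build GRCh38, and what each was used for is not given in the sources used here. Per the file headers, the deposited values are a log fold change (read as log2, since the step from no read to 1 read in 1 library, 0.528, equals that of a log2 scale) and a p-value for whole cells, and for each fraction a mean normalized count (the column baseMean, which differs between the fractions and is taken as the mean over the libraries of one fraction, vehicle and GC7 together), a log2 fold change, its standard error (a score in the deposited table), and raw and adjusted p-values.

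The deposited whole-cell p-values received a Benjamini-Hochberg adjustment across the 44682 genes. Calls in the fractions use the deposited adjusted p under 0.05. Fraction fold changes were unshrunken by fitting the scale of a Cauchy prior to the deposited p-values (0.284 for cytoplasm and 0.293 for polysomes, log2 scale; z matched within 0.1 for 99.7% and 99.8% of genes). Intervals are the unshrunken value with a normal 95% range. The difference between fractions was tested with a normal test over 15742 genes, leaving out 5 whose z was off by over 0.5. These steps were run on data simulated with the same form of prior and with independent errors between fractions. That run could check neither assumption. Tests on counts, leave-one-out fits and the replicate block had been planned and need single libraries, so they were not run. Lengths, ATTTA and proline codons come from GENCODE release 44 canonical transcripts (12901 genes matched), promoters from RefSeq (GRCh38.p14). Python 3.11.15, scipy 1.17.1 and pandas 2.3.3 were used.

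The 10 genes and the lists were chosen with earlier results of these data known. Named genes are the 10, called members of each list with up to 4 more by smallest polysomal p, of which a selection is given, and the 3 genes nearest to the gene with the smallest polysomal p. EGR1, EGR3, ETV1, CCND1 and the copies of DUSP5 and SPRY4 were chosen after their values were seen. So were MAPK3 and SPRY1, although both also fall within the rule by smallest polysomal p.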

Additional observations from a re-analysis of the deposited data

How the results depend on the processing

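Many of the 160 recomputed values could not change by construction. The calls among the 10 genes kept their direction and side of the threshold in 158 of the 160, and 0 were reversed. The other 2 were those of DUSP5: asking also for a log2 fold change over 1 in size, as the deposited category does, ended its call in cytoplasm (0.95) and polysomes (0.84), which left 0 of 10 genes called in each fraction, and reduced all genes called to 166 and 214 from 668 and 1746. Its unshrunken cytoplasmic value, 1.01, lies just past that size, so the category turns on the shrinkage there. In whole cells 1214 genes had an unadjusted p under 0.05 with a size over 1, none of the 10 among them, against 0 after adjustment. For the difference between fractions, a correlation of 0.5 between the errors gave 25 called genes and shrunken values gave 1, against 0 (337 at an unadjusted p under 0.05), and 0 of the 10 in either. Centring on the median moved values by at most 0.04. Only centring and the shrunken difference could reverse a direction, since every other setting keeps the sign of each value. The unshrunken fold changes kept the deposited adjusted p-values, so no call could change there. The count of 158 therefore holds many outcomes fixed in advance.

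No paired analysis was possible because the tables hold no values of single libraries, and leaving out single libraries was not run for the same reason. Depth is unknown, and the wide cytoplasmic errors of DUSP1 and SPRY2 limit what can be said of both.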
